A study of Arabidopsis thaliana with 9 samples.

Results

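Seedlings of the Arabidopsis thaliana mutants cyp71-3 and se-1 were compared with each other directly, gene by gene. The comparison took the 3 libraries labelled cyp71-3 and the 3 labelled se-1, and all genes with a mean of at least 1 FPKM (fragments scaled for transcript length and library size) over these 6 libraries, which were 19219 of the 32823 genes in the files. Both mutants, and the 3 libraries of the wild-type accession Col-0 that stand beside them as a reference, were grown without treatment in days of 16 h light at 22 °C and 8 h dark at 18 °C and harvested as whole seedlings at 2 weeks of age. The labels give the alleles by name only and do not describe their lesions. They do not say whether the libraries came from separate cultures, so the p-values measure the spread between these libraries, which may be technical. A whole seedling mixes organs, and in such bulk RNA fewer cells of a type and less RNA per cell cannot be told apart.

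CYP71 is a nuclear cyclophilin with WD40 repeats, an enzyme that turns peptide bonds at proline residues, and is known from work on chromatin and meristem genes. SERRATE, the gene mutated in se-1, encodes a zinc-finger protein that acts with the nuclease DICER-LIKE1 and the double-stranded RNA binding protein HYL1 to cut microRNA (miRNA) precursors. Plant miRNAs pair closely with their target mRNAs and direct their cleavage or repress their translation, so a target's mRNA level is one of the readouts of the pathway. The series title links CYP71 to SERRATE and to miRNA processing, and setting the mutants side by side shows which genes differ between them. As background, se-1 is known as a partial loss-of-function allele.

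Sequences of 7 miRNAs and of 10 sites in the genes that the results on targets turn on are shown here. For each of these target genes the libraries of the 2 mutants did not overlap. Sequences are 5′ to 3′, read from the RefSeq reference TAIR10.1. Capitals in a miRNA mark its seed (bases 2 to 8), and capitals in a site mark the bases opposite that seed. Each site is the best ungapped window of the annotated transcript, and pairing counts only A with U and G with C.

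miR398 guides cleavage of mRNAs of copper/zinc superoxide dismutases. The CSD1 window (17 of 21 bases paired) crosses an exon junction in the 5′ UTR within chr1:2827177-2827685, plus strand, and that of CSD2 (13 of 21 paired) lies in the coding sequence at chr2:12015572-12015592, plus strand. The miR408 window of the plantacyanin gene ARPN (19 of 21 paired) is coding, at chr2:827696-827716, minus strand.
miR398b-3p: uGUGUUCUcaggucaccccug
CSD1 site: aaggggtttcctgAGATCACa
CSD2 site: tgcgggtgacctgGGAAACAt
miR408-3p: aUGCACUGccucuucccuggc
ARPN site: ccaagggaagaggCAGTGCAt

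miR156 targets SPL genes, which promote the change from juvenile to adult growth, and miR403 targets AGO2, an Argonaute gene. The SPL3 window (18 of 20 paired) is in the 3′ UTR at chr2:14305878-14305897, plus strand, that of SPL9 (19 of 20 paired) is coding at chr2:17589066-17589085, plus strand, and that of AGO2 (20 of 21 paired) is in the 3′ UTR at chr1:11185223-11185243, plus strand.
miR156a-5p: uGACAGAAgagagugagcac
SPL3 site: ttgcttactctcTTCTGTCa
SPL9 site: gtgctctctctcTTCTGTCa
miR403-3p: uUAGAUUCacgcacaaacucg
AGO2 site: ggagtttgtgcgtGAATCTAa

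miR172 targets AP2-like repressors of flowering, miR169 targets NF-YA transcription factor genes, and miR828 cuts the non-coding precursor TAS4. The SMZ and TOE2 windows are coding, at chr3:20373774-20373794, minus strand (18 of 21 paired) and chr5:24210889-24210909, plus strand (20 of 21 paired). The NFYA10 window (18 of 21 paired) is in the 3′ UTR at chr5:1986750-1986770, plus strand, and the TAS4 window (21 of 22 paired) is at chr3:9417809-9417830, minus strand.
miR172a: aGAAUCUUgaugaugcugcau
SMZ site: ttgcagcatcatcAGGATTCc
TOE2 site: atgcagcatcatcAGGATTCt
miR169d: uGAGCCAAggaugacuugccg
NFYA10 site: aggcaaatcatctTTGGCTCa
miR828: uCUUGCUUaaaugaguauucca
TAS4 site: tggaatactcatttGAGCAAGa

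The mutants differed at most expressed genes, mostly by small amounts. Differences are cyp71-3 minus se-1 on the log2(FPKM + 1) scale with the standard error of the fit after the sign ± (SE), a scale that understates the change of low genes, and genes with a limma Benjamini-Hochberg adjusted p under 0.05 over all genes tested are referred to as called. Of the 19219 genes, 11979 were called (62.3%), of which 5781 were higher (30.1% of genes tested) and 6198 lower (32.2%) in cyp71-3. The median of all differences was -0.0006, and 59.3% of the called genes differed by less than 0.5. Differences of at least 1 numbered 644 upward (3.35%) and 792 downward (4.12%), and those of at least 2 numbered 100 and 105. When the test itself required a difference above 0.25, 2550 genes were higher and 3094 lower. The 3 libraries of one mutant lay wholly above or below those of the other for 66.3% of the genes tested. Each of the 5 nuclear chromosomes gave a similar share of called genes, between 61.9% and 63.2%. These shares are the background against which each group of genes below is read.

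**Figure D1:**
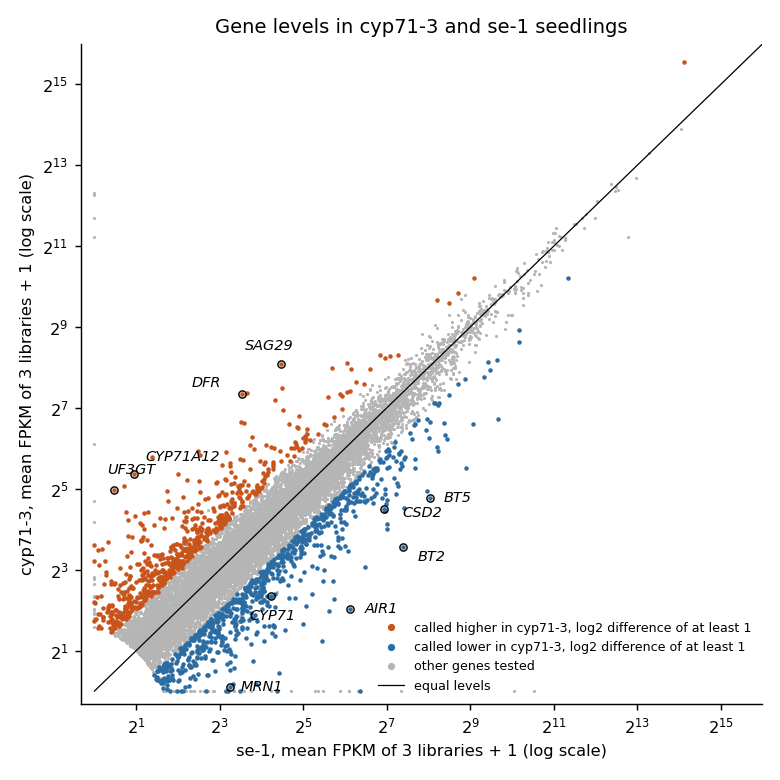
Mean FPKM + 1 of the 3 se-1 libraries (x axis) and the 3 cyp71-3 libraries (y axis), both on log scales, for the 19219 genes tested. Genes called with a difference of at least 1 are coloured (644 higher, 792 lower in cyp71-3); most genes lie along the line of equal levels, and the named genes lie far from it.

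FPKM summed to between 825338 and 883795 per mutant library, and the steps between low values put the deepest of the 9 libraries at 1.62 times the shallowest, a coarse estimate. Across genes, libraries of one mutant correlated at r of at least 0.982 and libraries of different mutants at 0.931 to 0.939. Chloroplast genes held 0.0313% to 3.44% of the sum, the highest in cyp71-3 replicate 1. Genes under 300 bp held 9.43%, 5.01% and 6.53% of the sum in the 3 cyp71-3 libraries and 4.88%, 1.74% and 1.80% in se-1, so this share was higher in cyp71-3, and its part in the results was tested only by the rescaling without organelle and short genes given beside them. Green tissue and root markers were detected in every library, as the label of whole seedlings requires, and flower organ and seed genes were near the detection limit: 2 of 5 and 1 of 5 listed genes passed the filter. The latter, EM6 (AT2G40170), was at 4.09, 4.29 and 3.27 FPKM in cyp71-3 and 0.12, 0.72 and 0.67 in se-1, and of the former SEP3 was higher (0.99 ± 0.15 SE) and PI lower (-0.61 ± 0.16 SE) in cyp71-3. Root markers moved with the mutants. Of 12 tested, none was higher and 8 were lower in cyp71-3, with a median of -0.40, and the 14 listed genes summed to 110 to 115 FPKM in cyp71-3, 158 to 165 in se-1 and 93.5 to 101 in Col-0. CASP1 (AT2G36100), a protein of the Casparian strip of root endodermis, was at 10.3, 10.9 and 9.94 FPKM in cyp71-3 against 19.8, 22.5 and 24.0 in se-1. SMB (AT1G79580), a root cap regulator, was at 0.34, 0.79 and 0.72 against 2.38, 2.25 and 2.27 FPKM, while COBL9 of root hairs and SCR of the ground tissue were not called. No listed root marker was at 0 in all 6 libraries. Of 5 xylem and phloem genes, 2 were higher (SUC2 and APL, of phloem) and 2 lower (XCP1 and IRX3, of xylem). Of all genes tested 30.1% were higher and 32.2% lower, so counts this small do not show a division between the tissues. The calls of APL and IRX3 were lost with a required difference above 0.25.

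The mutated genes themselves came first. CYP71 (AT3G44600, chromosome 3) was at 3.70, 4.41 and 4.16 FPKM in cyp71-3 and 17.9, 17.1 and 18.3 in se-1. Its levels in cyp71-3 were 4.34-fold lower and did not overlap those of se-1 (-1.88 ± 0.07 SE, limma adjusted p = 1.56e-09). SERRATE (AT2G27100, chromosome 2) was at 33.1, 33.2 and 32.8 FPKM in cyp71-3 and 29.0, 27.2 and 25.5 in se-1, a small difference beyond the spread (0.27 ± 0.05 SE, limma adjusted p = 0.000742). A value over the whole gene does not show which lesion se-1 carries, so it does not check that label.

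miRNA targets were lower in cyp71-3 than in se-1 far more often than higher. Of 90 listed targets, 83 passed the filter, and of these 52 were lower, 13 higher and 18 not called. The lower share was 62.7% against 32.2% of all genes tested, and the higher share 15.7% against 30.1%. The median of their differences was -0.28, against -0.0006 over all genes. With a required difference above 0.25, 31 were lower and 6 higher. The median of the same targets was -0.10 in cyp71-3 and 0.31 in se-1 relative to Col-0, values that share the Col-0 libraries.

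Targets of the copper-responsive miRNAs miR398 and miR408 held the 3 largest differences among the tested targets. CSD2 (AT2G28190), the chloroplast superoxide dismutase gene, was at 22.5, 20.4 and 21.7 FPKM in cyp71-3 and 119.7, 124 and 120.2 in se-1, with Col-0 between them at 57.2, 58.1 and 58.8. CSD1 (AT1G08830), the cytosolic one, was at 24.9, 28.0 and 26.6 FPKM in cyp71-3, 115, 116 and 123 in se-1 and 54.2, 47.7 and 57.7 in Col-0. For both genes no library of one genotype overlapped those of another, and cyp71-3 was the lowest. The differences were -2.44 ± 0.04 SE for CSD2 (limma adjusted p = 3.82e-12) and -2.11 ± 0.07 SE for CSD1 (limma adjusted p = 4.36e-10). The other listed miR398 targets were lower as well: COX5b-1 (AT3G15640), for a subunit of cytochrome c oxidase, differed by -0.77 ± 0.05 SE, and CCS, for the copper chaperone of these dismutases, by -0.38 ± 0.07 SE. Of the miR408 targets, ARPN (AT2G02850) was at 2.31, 2.89 and 1.78 FPKM in cyp71-3 and 9.29, 10.2 and 11.2 in se-1 (-1.76 ± 0.12 SE, limma adjusted p = 3e-07), and the laccase genes LAC3 and LAC13 differed by -1.03 and -0.35. The call of LAC13 was lost without cyp71-3 replicate 1, se-1 replicate 2 or se-1 replicate 3, and with a required difference above 0.25. Both tested miR397 targets, the laccase genes LAC4 and LAC17, were lower too (-0.79 and -0.98). Laccases are copper enzymes that act in lignin formation.

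Genes of copper homeostasis moved both ways, with 5 of 11 higher and 4 lower. These shares were 45.5% and 36.4%, against 30.1% and 32.2% of all genes tested. FRO5 (AT5G23990), a copper reductase gene, was at 25.4, 28.1 and 25.9 FPKM in cyp71-3 and 5.80, 5.55 and 5.45 in se-1 (2.06 ± 0.07 SE, limma adjusted p = 6.6e-10). Its neighbour FRO4 (AT5G23980) went the other way, at 1.58, 1.19 and 1.41 against 4.77, 4.43 and 4.77 FPKM (-1.24 ± 0.10 SE). How fragments shared by these related genes were divided is not given in the sources used here. The copper transporter gene COPT2 was higher (1.07 ± 0.06 SE), and COPT1 was lower (-0.34 ± 0.06 SE).

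Targets of miRNAs that act in development were mostly lower in cyp71-3. Of 8 SPL genes tested, none was higher and 6 were lower (median -0.59). SPL3 (AT2G33810) was at 2.50, 2.37 and 2.96 FPKM in cyp71-3 and 8.47, 8.07 and 8.71 in se-1, SPL9 (AT2G42200) at 5.11, 3.60 and 4.02 and 10.8, 10.6 and 10.2, and SPL11 at 5.48, 6.54 and 6.06 and 16.2, 16.4 and 16.0. In each of these 3 genes the se-1 libraries were the higher, without overlap. The differences were -1.39 ± 0.09 SE (limma adjusted p = 9.88e-08), -1.15 ± 0.10 SE (limma adjusted p = 2.31e-06) and -1.30 ± 0.08 SE (limma adjusted p = 6.08e-08). SPL4 and SPL15 were not called, and SPL13A and SPL13B were listed at 0 in all 6 libraries. There was 1 higher call without se-1 replicate 3, with FPKM rescaled, with robust variance and with library weights. The lower count was 7 without se-1 replicate 1, without the intensity trend or with library weights. It was 4 with a required difference above 0.25. Of 6 NAC genes targeted by miR164, 5 were lower, led by NAC1 (-0.74), ORE1 (-0.71) and CUC2 (-0.62), a gene of organ boundaries. Of 6 growth-regulating factor genes under miR396, 4 were lower, with GRF8 at 0.85, 0.95 and 1.02 FPKM in cyp71-3 and 4.84, 3.80 and 3.60 in se-1 (-1.38 ± 0.12 SE). GRF1 and GRF3 of the same family were not called (1 higher call without se-1 replicate 3, with FPKM rescaled or with library weights).

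Smaller families followed the same sign, with some exceptions. The 3 HAM genes, targets of miR171 that maintain meristems, were all lower (-0.87 in HAM2, -0.32 in HAM1 and -0.27 in HAM3). Of 5 TCP genes of leaf growth under miR319, 4 were lower, led by TCP4 (13.9, 14.5 and 14.4 FPKM in cyp71-3, 27.9, 26.6 and 26.8 in se-1). Of 5 HD-ZIP III genes of organ polarity, 3 were lower, with -0.52 in ATHB15, and PHB and PHV were not called. All 4 miR395 targets were lower, including the ATP sulfurylase genes APS1 (-0.32) and APS3 (-0.45), but 2 of the 4 lost the call under quantile normalization. With a required difference above 0.25, lower calls numbered 1 for HAM, 3 for TCP, 1 for HD-ZIP III and 1 for miR395 targets. Auxin receptor genes under miR393 divided, with AFB1 lower (-0.41), AFB2 higher (0.24) and differences of -0.15 and 0.10 in TIR1 and AFB3. The call of AFB3 was lost when any of 7 libraries was left out, and that of TIR1 under quantile normalization (limma adjusted p = 0.167).

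The other families held 1 to 3 tested targets each. AGO1, the Argonaute gene under miR168, was lower (-0.37), as were NLA under miR827 (-0.79), LCR under miR394 (-0.31), the laccase gene LAC7 under miR857 (-0.42) and the methyltransferase gene FAMT under miR163 (-0.77). Both miR160 and miR167 targets divided: ARF16 (-0.48) and ARF8 (-0.42), auxin response factor genes, were lower, and ARF10 (0.16) and IAR3 (0.22) higher. The MYB genes MYB33 under miR159 and MYB111 under miR858 were higher (0.40 and 0.36). DCL1 under miR162, PHO2 under miR399 and AGL16 under miR824 were not called, although AGL16 was called higher when any of 4 libraries was left out and DCL1 lower without se-1 replicate 3.

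AP2-like and NF-YA genes held 7 of the 13 rises among targets. No miR172 target was lower in cyp71-3, and 4 of 6 were higher (median 0.46). SMZ (AT3G54990) was at 16.3, 15.3 and 15.3 FPKM in cyp71-3 and 4.55, 4.11 and 5.51 in se-1, and TOE2 (AT5G60120) at 22.8, 23.8 and 22.1 and 14.8, 14.5 and 12.9. Neither gene overlapped between the mutants (1.54 ± 0.10 SE, limma adjusted p = 1.31e-07, and 0.67 ± 0.06 SE, limma adjusted p = 1.88e-06), while TOE3 and SNZ were not called (1 lower call without cyp71-3 replicate 2). Of 7 NF-YA genes, 3 were higher and 4 lower. NFYA10 (AT5G06510) was at 7.41, 7.83 and 8.01 FPKM in cyp71-3 and 3.17, 2.84 and 2.95 in se-1 (1.13 ± 0.11 SE, limma adjusted p = 4.62e-06). NFYA5 and NFYA1 were also higher, and the 4 that were lower differed by less than 0.3 (2 stayed called when FPKM was rescaled). Of those, NFYA8 lost its call in 11 of the 24 alternative fits, including those without cyp71-3 replicate 3 (adjusted p = 0.172) and without se-1 replicate 3 (limma adjusted p = 0.157).

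**Figure D2:**
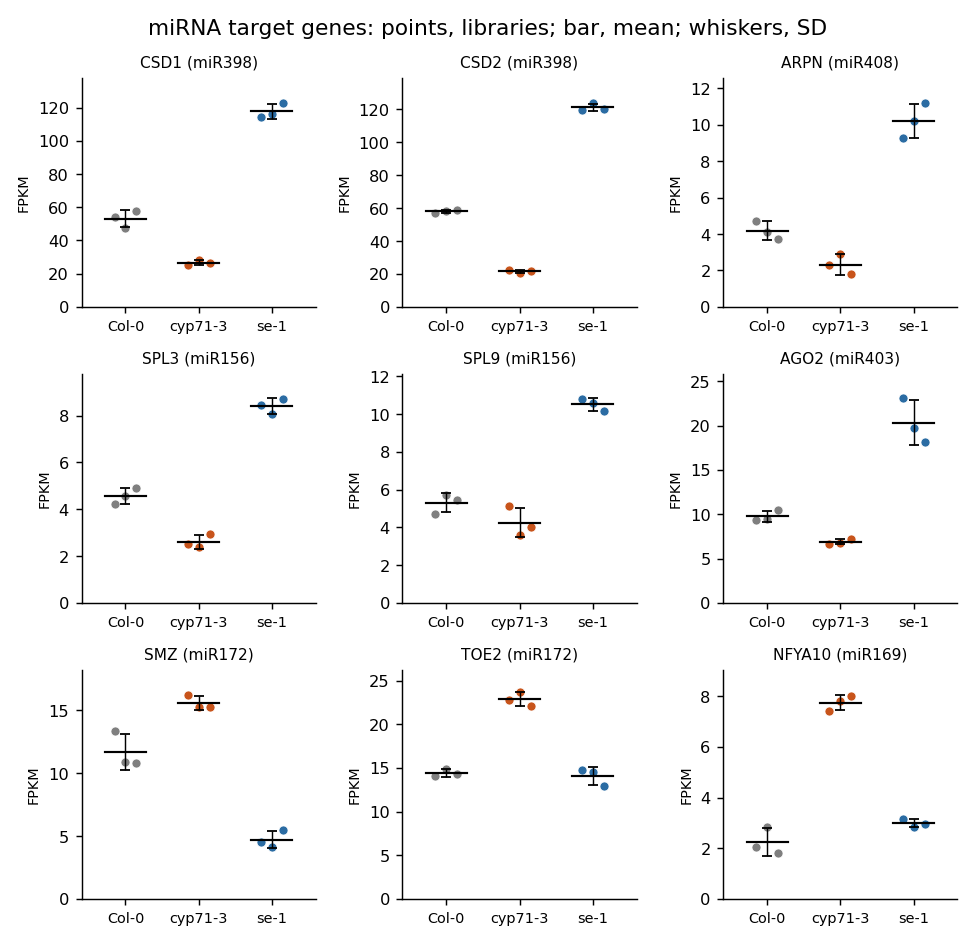
FPKM (y axes, from 0) of 9 miRNA target genes in the 3 libraries of Col-0, cyp71-3 and se-1, with the mean as a bar and the SD as whiskers. In CSD1, CSD2, ARPN, SPL3, SPL9 and AGO2 the se-1 libraries are the highest, and in SMZ, TOE2 and NFYA10 the cyp71-3 libraries are.

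Precursors of trans-acting small interfering RNAs (tasiRNAs) are cut under a miRNA and turned into small RNAs by a second pathway. Of 11 tested precursors and targets, 4 were higher in cyp71-3 (36.4%) and 6 lower (54.5%), against 30.1% and 32.2% of all genes tested. TAS3 (AT3G17185), cut under miR390, was at 53.1, 55.9 and 53.9 FPKM in cyp71-3, 165, 166 and 184 in se-1 and 90.1, 92.3 and 94.5 in Col-0 (-1.64 ± 0.05 SE, limma adjusted p = 1.81e-10). TAS1C and TAS1B were lower as well (-1.34 and -0.78), and TAS2 was not called. TAS4 (AT3G25795) went the other way, at 1.72, 2.25 and 2.86 FPKM in cyp71-3 and 0.19, 0.52 and 0.34 in se-1 (1.27 ± 0.16 SE). TAS4 passed the filter only through its cyp71-3 libraries. Its tasiRNA targets include PAP1 (AT1G56650), a MYB activator of anthocyanin genes, which was at 18.0, 19.6 and 19.2 FPKM in cyp71-3 and 3.33, 4.34 and 3.05 in se-1 (2.13 ± 0.14 SE, limma adjusted p = 1.73e-07). PAP2 was higher too (1.67 ± 0.13 SE). TAS4 and both of its listed targets were thus higher in cyp71-3, while the auxin response factor genes ARF3 and ARF4, targets of TAS3 products, were lower, as TAS3 was (-0.22 and -0.46). The lower count of this list was 5 without cyp71-3 replicate 1 or 2 or any one se-1 library. With a required difference above 0.25 it was 4.

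The proteins of the small RNA pathway differed little at the mRNA level, with 15 of 31 genes higher, 5 lower and 11 not called (median 0.16). Their called share, 64.5%, was near the 62.3% of all genes, and the lower count was 8 without se-1 replicate 3. DCL1 and HYL1, whose proteins act with SERRATE, were among those not called. The largest differences were falls. AGO2 (AT1G31280), itself the miR403 target shown above, was at 6.66, 6.80 and 7.21 FPKM in cyp71-3 and 23.1, 19.8 and 18.1 in se-1 (-1.43 ± 0.08 SE, limma adjusted p = 6.3e-08). NOT2B (AT5G59710), whose protein acts with the miRNA processing machinery, was at 18.9, 19.1 and 19.96 against 53.2, 49.2 and 53.0 FPKM (-1.38 ± 0.05 SE, limma adjusted p = 2.03e-09), with Col-0 at 23.9, 26.7 and 24.5. CPL1, a phosphatase that acts on HYL1, was lower (-0.77 ± 0.07 SE). The largest rises, in HST, SGS3 and DCL3, were between 0.50 and 0.54.

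Most miRNA precursor genes were not measurable in these mRNA libraries. Of 323 annotated MIR genes, 272 were listed at 0 in all 6 libraries and 38 passed the filter. Of those tested, 2 were higher and 6 lower in cyp71-3, a called share of 21.1% against 62.3% of all genes tested. The median difference of the 38 was nevertheless -1.17, with a range from -3.29 to 2.71, so few calls did not mean equal levels. The counts were not stable: they were 0 and 2 with robust variance, 2 and 12 with library weights, 0 higher without cyp71-3 replicate 2 or se-1 replicate 1, 0 and 3 without se-1 replicate 2, and 3 and 2 without se-1 replicate 3. MIR157c (AT3G18217) was at 23.9, 13.6 and 7.55 FPKM in cyp71-3 and 146, 139 and 96.2 in se-1 (-3.11 ± 0.29 SE, limma adjusted p = 3.35e-06). MIR824 (AT4G24415) was at 2.12, 2.78 and 2.55 and 13.6, 12.4 and 11.6 FPKM (-1.96 ± 0.11 SE, limma adjusted p = 6.01e-08). In both, the se-1 libraries were the higher without overlap, whereas MIR163 was at 5.94, 6.95 and 9.09 and 2.98, 2.50 and 7.24 FPKM with overlap.

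Anthocyanin genes were among the largest rises in cyp71-3. Among the 26 genes of flavonoid and anthocyanin synthesis, 16 were higher and 8 lower in cyp71-3 (median 0.55), and 11 were higher by at least 1. DFR (AT5G42800), which makes leucoanthocyanidins, was at 159, 166 and 161 FPKM in cyp71-3 and 11.0, 10.1 and 10.6 in se-1. LDOX (AT4G22880), the next enzyme, was at 164, 162 and 169 and 10.7, 12.6 and 11.6 FPKM. Both genes were, respectively, 15.3-fold and 14.2-fold higher in cyp71-3 without overlap (limma adjusted p = 1.3e-12 and 6.47e-12). UF3GT (AT5G54060), which adds xylose to anthocyanins, was at 30.1, 30.1 and 31.1 against 0.36, 0.43 and 0.38 FPKM (4.50 ± 0.08 SE), and UGT75C1 (AT4G14090), which adds a glucose, at 53.0, 56.5 and 58.1 against 4.75, 4.40 and 5.26 (3.29 ± 0.10 SE). For DFR, LDOX and UGT75C1 the Col-0 means, 10.2, 10.7 and 4.86 FPKM, lay near those of se-1. The falls lay at other places of the pathway: the repressor MYBL2 (AT1G71030) was at 16.1, 16.5 and 17.5 FPKM in cyp71-3 and 42.7, 48.6 and 48.04 in se-1 (-1.42 ± 0.06 SE), the bHLH gene EGL3 was lower (-0.76) and PAL2, of the entry into phenylpropanoids, differed by -0.65. FLS1 (flavonols), named after its values were seen, was at 86.8 FPKM on average in cyp71-3 and 133 in se-1.

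Genes of mitosis were higher in cyp71-3, and genes of DNA replication were not. Of 22 mitotic and cyclin genes, 19 were higher, 1 was lower and 2 were not called (median 1.14), a higher share of 86.4% against 30.1% of all genes, and 14 were higher by at least 1. The cyclin gene CYCB1;1 (AT4G37490) was at 13.8, 15.6 and 14.1 FPKM in cyp71-3 and 3.72, 3.67 and 3.56 in se-1 (1.74 ± 0.08 SE, limma adjusted p = 7.2e-09). HIK (AT1G18370), a kinesin of cytokinesis, was at 14.3, 14.4 and 14.3 against 4.72, 4.50 and 4.28 FPKM (1.48 ± 0.07 SE). The exception was CYCD3;3, a cyclin of the G1 phase, which was lower (-0.39), and without se-1 replicate 2 the lower count was 2. Of 9 replication genes, 1 was higher and 5 were lower (median -0.14), with the clamp genes PCNA2 and PCNA1 lower (-0.53 and -0.47) and TSO2, for a subunit of ribonucleotide reductase, higher (0.26). The lower count was 3 without cyp71-3 replicate 2 or 3, without se-1 replicate 1, and with replicate number as a block.

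Genes of the DNA damage response were also mostly higher, 12 of 16 or 75.0%, with 1 lower (median 0.81). NAC044 (AT3G01600), a transcription factor gene downstream of the damage regulator SOG1, was at 24.0, 25.4 and 25.6 FPKM in cyp71-3 and 2.50, 2.52 and 2.10 in se-1. It was 10.5-fold higher without overlap (limma adjusted p = 4.04e-09), and Col-0 was at 0.59, 0.34 and 0.95. GMI1 (AT5G24280), a gene induced by ionising radiation, was at 10.8, 11.7 and 11.2 against 1.91, 1.39 and 1.34 FPKM (2.27 ± 0.10 SE), and NAC085 at 3.06, 1.94 and 1.79 against 0.34, 0.24 and 0.4 (1.28 ± 0.16 SE). SOG1 itself was not called, and the exception was KU70, of end joining, which was lower (-0.27). Chromatin genes differed less. Of 13 genes of the histone chaperone CAF-1 and of Polycomb complexes 6 were lower and 1 was higher, SWN by 0.71, and of 9 histone H3 genes 5 were higher and 2 lower. For the CAF-1 and Polycomb list, 3 were higher and 3 lower when FPKM was rescaled without organelle and short genes, so the imbalance was lost. Its lower count was also 3 without cyp71-3 replicate 3 or se-1 replicate 2, and its higher count 2 without se-1 replicate 1.

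**Figure D3:**
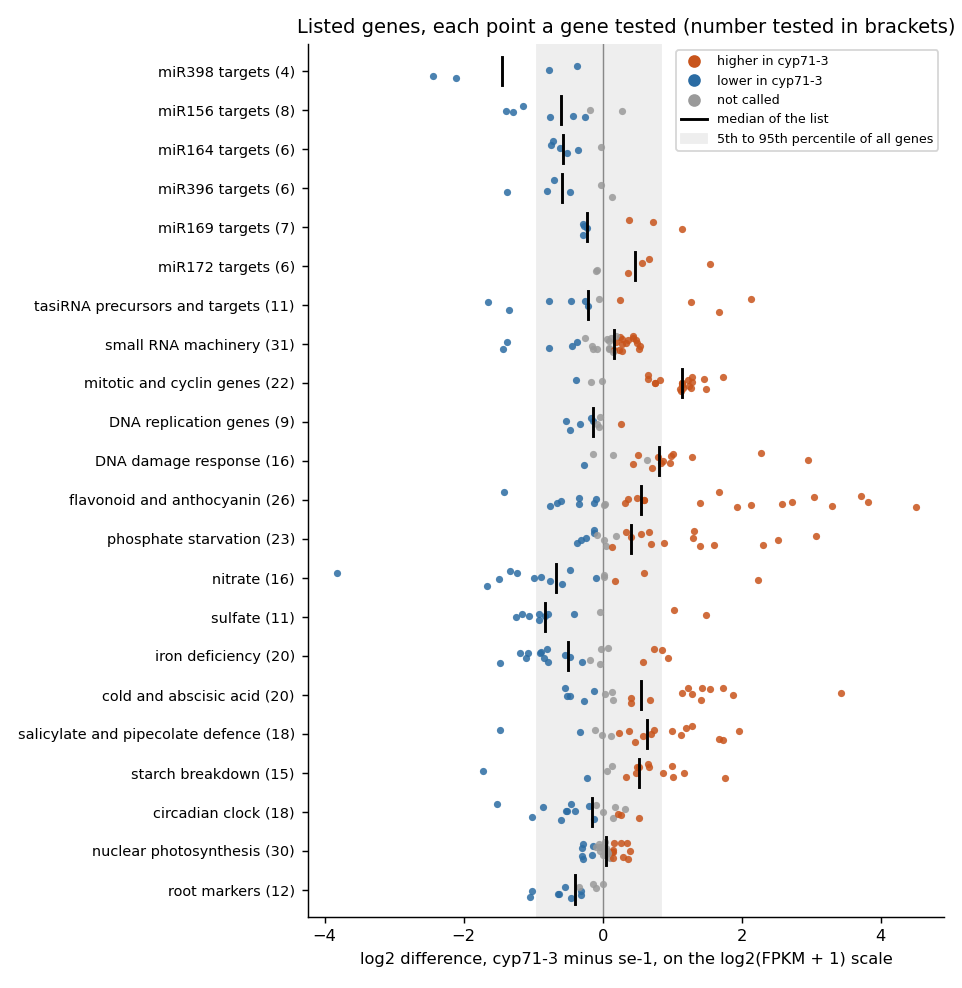
Differences (x axis, cyp71-3 minus se-1, log2(FPKM + 1) scale) of every tested member of 22 gene lists, coloured by call, with the list median as a black bar and the range from the 5th to the 95th percentile of all genes tested (-0.94 to 0.84) shaded. The medians of mitotic genes (1.14) and DNA damage genes (0.81) lie furthest right, and that of miR398 targets (-1.44) furthest left.

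Nutrient genes separated the mutants by element: phosphate genes were mostly higher in cyp71-3, and nitrate, sulfate and iron genes mostly lower. Many of these genes are expressed in roots, and the root markers given above were lower in cyp71-3 than in se-1 too. Their part in these results was not tested.

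Of 23 phosphate starvation genes, 14 were higher and 5 lower (median 0.41). The non-coding RNA IPS1 (AT3G09922), which sequesters miR399, was at 16.1, 18.3 and 15.8 FPKM in cyp71-3 and 1.19, 0.7 and 1.55 in se-1, with Col-0 between them at 9.77, 6.07 and 6.43. Its relative AT4 (AT5G03545) was at 75.5, 78.1 and 78.8 and 13.0, 12.6 and 12.3 FPKM, and the phosphatase gene PS2 (AT1G73010) at 46.5, 46.6 and 45.1 and 7.67, 9.15 and 8.68. The 3 genes did not overlap between the mutants, with differences of 3.06 ± 0.17 SE (limma adjusted p = 4.08e-08), 2.52 ± 0.04 SE (limma adjusted p = 4.01e-12) and 2.31 ± 0.08 SE (limma adjusted p = 1.2e-09). PHR1, the transcription factor that activates such genes, was lower (-0.36), and the transporter gene PHT1;1 differed by -0.23. The lower count was 2 or 3 without cyp71-3 replicate 1 or 3, se-1 replicate 1 or 3, or Col-0 replicate 2 or 3, and 2 when FPKM was rescaled without organelle and short genes.

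Nitrate genes were lower in cyp71-3 in 11 of 16 cases and higher in 3 (median -0.68). BT2 (AT3G48360), a BTB and TAZ domain protein gene that responds to nitrate and sugars, was at 11.5, 10.8 and 10.2 FPKM in cyp71-3, 169, 174 and 158 in se-1 and 29.1, 27.3 and 27.4 in Col-0. The se-1 libraries were 15.4-fold higher than those of cyp71-3 (-3.83 ± 0.05 SE, limma adjusted p = 1.36e-12). The repressor genes LBD39 and HRS1 were lower (-1.67 ± 0.06 SE and -1.49 ± 0.10 SE). The high-affinity transporter gene NRT2.1 (AT1G08090) was the largest rise, at 5.08, 4.73 and 5.86 FPKM in cyp71-3 and 0.27, 0.44 and 0.26 in se-1 (2.23 ± 0.13 SE, limma adjusted p = 5.79e-08).

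Of 11 sulfate genes 8 were lower and 2 higher (median -0.84). APR3 (AT4G21990), an adenylylsulfate reductase of sulfate assimilation, was at 102, 105 and 101 FPKM in cyp71-3 and 213, 213 and 219 in se-1 (-1.06 ± 0.03 SE), and SHM7 and LSU2 were lower (-1.24 and -1.16). SULTR4;2, which releases sulfate from the vacuole, was higher (1.02 ± 0.07 SE). Of 20 iron genes 12 were lower and 4 higher (median -0.50). The regulator gene BHLH101 (AT5G04150) was at 6.84, 6.25 and 6.37 against 19.2, 18.2 and 22.6 FPKM (-1.48 ± 0.08 SE), and the ubiquitin ligase gene BTS and the peptide gene IMA1 (AT1G47400) were lower (-1.19 and -1.11). Its relative BHLH38 (0.94), the reductase gene FRO2 (0.85) and the ferritin gene FER1 (0.74) were higher, so neither the related regulators nor the pathway moved one way.

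**Figure D4:**
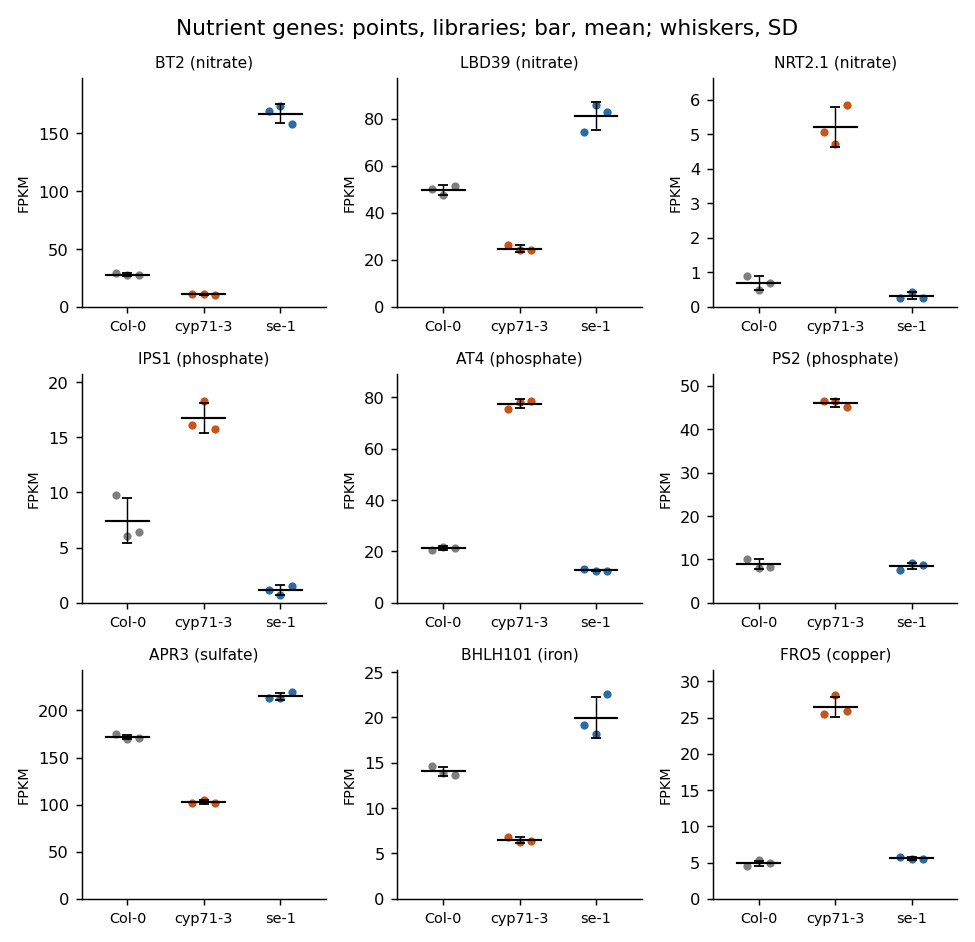
FPKM (y axes, from 0) of 9 genes of nitrate, phosphate, sulfate, iron and copper responses in the 3 libraries of each genotype, with the mean as a bar and the SD as whiskers. BT2, LBD39, APR3 and BHLH101 are highest in se-1, and NRT2.1, IPS1, AT4, PS2 and FRO5 are highest in cyp71-3.

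Of 7 listed root-expressed triterpene genes, 6 passed the filter, and all 6 were lower in cyp71-3 (median -1.69). The 7 genes summed to 11.2 to 12.4 FPKM in cyp71-3 and 47.3 to 51.0 in se-1. A gene can pass the filter through its se-1 libraries alone, as MRN1 did, and is then bound to be lower in cyp71-3. MRN1 (AT5G42600), marneral synthase, was at 0.05, 0.11 and 0.06 FPKM in cyp71-3, 9.07, 8.45 and 7.99 in se-1 and 0.15, 0.2 and 0.12 in Col-0 (-3.15 ± 0.11 SE, limma adjusted p = 8.08e-10). Its cluster neighbours CYP705A12 and MRO were lower (-1.98 and -1.79). Of 8 major latex protein-like genes, 6 were lower, with MLP329 (AT2G01530) at 3.85, 3.73 and 4.05 against 52.4, 46.4 and 58.9 FPKM (-3.45 ± 0.07 SE), and MLP168 and MLP43 were higher (2.07 and 1.27). The summed level of root markers moved the same way as these falls, and its part in them was not tested.

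The other large single-gene differences came from varied functions. CYP71A12 (AT2G30750), a cytochrome P450 of indole defence compounds unrelated to the cyclophilin CYP71, was at 38.9, 42.5 and 39.5 FPKM in cyp71-3, 1.03, 1.03 and 0.75 in se-1 and 2.51, 2.56 and 2.96 in Col-0 (4.42 ± 0.09 SE, limma adjusted p = 8.75e-12). SAG29 (AT5G13170), a sugar transporter gene of senescing leaves, was at 256, 277 and 273 FPKM in cyp71-3 and 22.1, 20.5 and 20.8 in se-1 (3.60 ± 0.06 SE), and NUDT24 (AT5G19470), a Nudix hydrolase gene, at 20.2, 20.5 and 20.8 and 0.5, 0.43 and 1.14 (3.69 ± 0.14 SE). None of these genes overlapped between the mutants. Also among the 12 largest rises were the lipid transfer protein gene LTP4 (3.42), the mitochondrial NADH dehydrogenase gene NDB4 (3.32), the plastid glucose 6-phosphate translocator gene GPT2 (3.22), the phosphotransfer gene AHP4 (3.22) and the phloem lectin gene PP2-A1 (3.15).

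The 12 largest falls were led by AIR1 (AT4G12550), which was found as induced by auxin in cultured roots, at 3.36, 2.65 and 3.17 FPKM in cyp71-3 and 66.8, 68.9 and 69.9 in se-1 (-4.10 ± 0.06 SE, limma adjusted p = 2.29e-12). BT5 (AT4G37610), a relative of BT2, was at 27.5, 27.4 and 23.5 FPKM in cyp71-3, 260.2, 257 and 262 in se-1 and 138, 129 and 131 in Col-0 (-3.27 ± 0.05 SE). RAV1, a transcription factor gene, was at 9.43, 10.1 and 10.5 against 67.5, 70.5 and 61.9 FPKM (-2.62 ± 0.06 SE), again with Col-0 between (33.0, 33.4 and 34.3). The remainder were the defensin gene PDF1.5 (-3.04), MLP328 (-2.999), the lipase gene DSEL (-2.96), the MADS-box gene AGL42 (-2.73), the MYB inhibitor of trichomes TRY (-2.58) and the kinase gene CIPK3 (-2.52), beside BT2, MLP329 and MRN1 above. For AIR1 too, the part of the lower root marker sum was not tested.

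**Figure D5:**
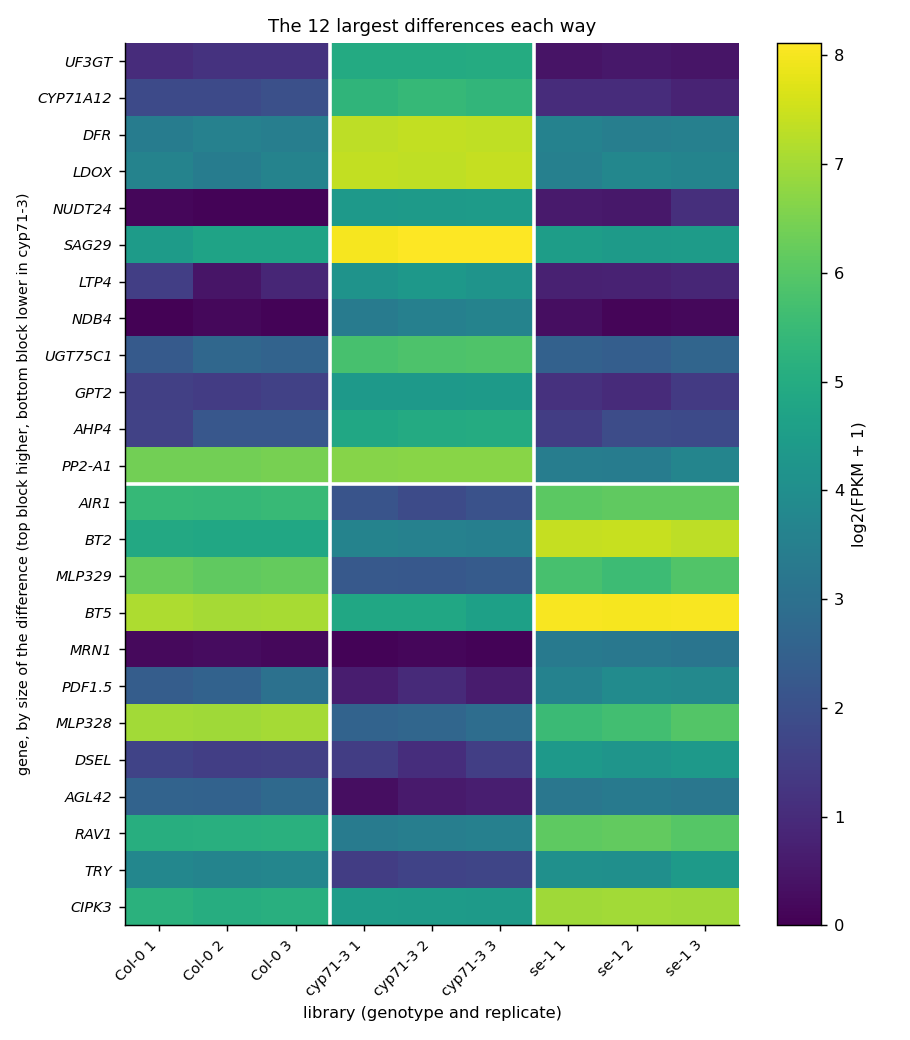
Levels, log2(FPKM + 1) by colour, of the 12 named genes with the largest rises (top block) and the 12 with the largest falls (bottom block) in cyp71-3 relative to se-1, in each of the 9 libraries. Within each block the 3 libraries of a genotype have nearly the same colour, and DFR reaches 159 to 166 FPKM in cyp71-3 against 10.1 to 11.0 in se-1.

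Stress and defence genes were mostly higher in cyp71-3, apart from chaperones. Of 20 cold and abscisic acid genes, 12 were higher and 5 lower in cyp71-3 (median 0.54). COR15A (AT2G42540), which protects chloroplast membranes in the cold, was at 23.5, 27.0 and 31.9 FPKM in cyp71-3 and 5.50, 6.34 and 8.56 in se-1 (1.88 ± 0.14 SE), and GOLS2, for galactinol synthesis, was higher by 1.73, while KIN1 and KIN2 were lower (-0.51 and -0.47). Of 18 salicylate and pipecolate genes, 13 were higher and 2 lower (median 0.63). PBS3 (AT5G13320), of salicylate synthesis, was at 5.05, 5.11 and 6.32 against 0.76, 0.54 and 0.7 FPKM (1.96 ± 0.10 SE), with Col-0 at 6.26, 6.86 and 6.60, so the cyp71-3 libraries were near the level of Col-0 and the se-1 libraries below it. FMO1, of pipecolate hydroxylation, was higher by 1.73, and the pathogenesis-related gene PR5 was lower (-1.48 ± 0.10 SE). The 13 heat shock genes comprised 7 lower and 4 higher ones (median -0.56): HSP70-4 (AT3G12580) was at 37.5, 37.5 and 38.5 FPKM in cyp71-3, 100.3, 100.3 and 97.8 in se-1 and 157, 154 and 157 in Col-0. The higher members were small heat shock proteins of low level, and their count was 1 without cyp71-3 replicate 1 or 2 and 2 without any one se-1 library. Among 25 jasmonate genes, 14 were higher and 5 lower, with 3 rises of at least 1 (PDF1.2B, CORI3 and LOX2), and 8 higher without cyp71-3 replicate 3.

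Primary metabolism and the clock differed as well. Of 15 starch breakdown genes, 11 were higher and 2 lower (median 0.52), with the plastid phosphorylase gene PHS1 (AT3G29320) at 44.2, 42.2 and 44.9 FPKM in cyp71-3 and 13.3, 12.5 and 10.9 in se-1 (1.76 ± 0.08 SE). BAM9 (AT5G18670), a β-amylase relative without activity, went the other way at 95.3, 102 and 98.5 against 319, 321 and 346 FPKM (-1.73 ± 0.04 SE). Of 18 clock genes 10 were lower and 3 higher (median -0.16), with the morning genes RVE1 and LHY lower (-1.51 and -1.02) and the evening gene ELF3 higher (0.52). The hour of harvest is not given in the labels. Of 19 aliphatic glucosinolate genes 13 were higher and 5 lower, led by CYP79F1 and CYP79F2 (1.30 and 1.26), whose enzymes open the pathway, and the lower count was 3 under quantile normalization. Of 8 indolic ones 4 were higher and 2 lower. Nuclear photosynthesis genes were close to equal, with a called share of 53.3%, below that of all genes, 10 higher and 6 lower of 30, none by 1, and 18 higher when FPKM was rescaled without organelle and short genes.

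Genes of growth and development moved both ways. Of 15 Aux/IAA and GH3 genes of the early auxin response, 9 were lower and 1 was higher (2 under quantile normalization), with IAA19 and IAA2 lower (-1.20 and -1.12). Expansin and XTH genes of the cell wall were 8 higher and 7 lower of 22, from -2.16 in XTH22 to 1.58 in EXPA11. Their shares of 36.4% and 31.8% were near the 30.1% and 32.2% of all genes tested. Of 8 shoot meristem genes 5 were higher, including STM (0.56) and KNAT6 (0.44), and KNAT2 was among the 2 lower (1 without se-1 replicate 3), at 1.82, 1.61 and 1.49 FPKM in cyp71-3 and 4.04, 3.98 and 4.17 in se-1. Of 10 flowering genes 6 were lower, led by FUL (-1.77 ± 0.11 SE) and MAF5 (-1.49 ± 0.17 SE), and FLM was higher (0.29). Of 5 KANADI and YABBY genes of the abaxial leaf side, 3 were higher and none lower (0 higher with a required difference above 0.25). Stomatal lineage genes were 4 higher and 5 lower of 12 (33.3% and 41.7%), with BASL higher (1.25) and EPFL9 lower (-0.83). Root hair genes were 2 higher and 3 lower of 12 (16.7% and 25.0%), both below the shares of all genes tested.

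A few genes were listed at 0 in one mutant and at 2 FPKM or more in every library of the other. AT1G27565 was listed at 0 in the se-1 libraries, at 11.2, 11.5 and 11.1 FPKM in cyp71-3 and at 8.60, 11.5 and 11.9 in Col-0. AT2G18190 and AT1G30170 were also listed at 0 in se-1, at 7.33, 8.51 and 8.82 and at 3.23, 4.42 and 3.12 FPKM in cyp71-3, and both were listed at 0 in Col-0. Of these, AT1G27565 was at 0 in se-1 alone, and the other two were above 0 in cyp71-3 alone. In the opposite direction, AT4G19240 was at 2.11, 2.63 and 2.72 FPKM in se-1, and U12 (AT1G61275), a small nuclear RNA of the minor spliceosome, was at 43.3, 114 and 87.0 in se-1 and at 0, 41.1 and 0 in Col-0. U12 is annotated at 175 bp, and its values varied between libraries of one genotype.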

How the data were processed

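Each of the 9 libraries had 1 deposited table of FPKM per gene, a unit scaled for gene length and library size by the authors. Per the labels' protocols, TRIzol RNA was enriched for mRNA on beads, fragmented and turned into PCR-amplified libraries for an Illumina instrument. The submitters' processing notes list Cuffdiff, Cuffnorm, STAR (version 2.7.2b), Trim Galore (version 0.6.7) and the genome build TAIR10. The sources used here do not give the part each tool played, the annotation, the strand setting or how libraries were scaled, so the depth is known only relatively, overlapping genes cannot be told apart, and no count model was used.

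A linear model was fitted per gene to log2(FPKM + 1) of all 9 libraries in limma 3.58.1 (R 4.3.3), with genotype as factor, variance moderated with an intensity trend and 6 residual degrees of freedom, for genes with a mean of at least 1 FPKM over the 6 mutant libraries. P-values are two-sided and Benjamini-Hochberg adjusted over the 19219 genes, with a threshold of 0.05. The procedure was run on simulated data with known changes in a small part of the genes. That run does not check the share of genes called here. An exact permutation test of 3 libraries against 3 cannot go below 0.1 and was not used. Gene lists were described by counts and medians, with no test. Members, lists and tests were chosen with earlier results of these data known.

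Named genes were CYP71 and SERRATE; the 12 largest called rises and falls among genes with a symbol, at least 300 bp, no overlap and a mean of at least 5 FPKM in the higher mutant; the 3 largest called differences each way in each list (6 for miRNA targets); and members of described miRNA families. Genes named as not called, FLS1, ARF3, ARF4 and genes in figures alone were added after their values were seen. Alternatives were the pseudocount, the filter, the scaling, the variance model, a required difference, a replicate block and leaving out each library. Symbols came from the RefSeq annotation TAIR10.1, which matched 32538 of the 32823 identifiers; the common names COX5b-1, HSP70-4, IMA1 and UGT75C1 are not in it and are printed with their loci. The small RNA libraries and the cyp71-2 allele that the design text names were not analysed here.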

Additional observations from a re-analysis of the deposited data

Results flagged for a closer look

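In 9 of the named genes the mutants lay on opposite sides of every Col-0 library, each mean at least 0.75 from that of Col-0 on the log2(FPKM + 1) scale, a minimum chosen after the values were seen. Both distances use the same 3 Col-0 libraries, and the difference between the mutants, given here, was tested directly by limma. In 7 of them cyp71-3 was below and se-1 above Col-0: BT2 differed by -3.83, BT5 by -3.27, the defensin gene PDF1.5 by -3.04, RAV1 by -2.62, CSD2 by -2.44, CSD1 by -2.11 and TAS3 by -1.64. In CYP71A12, with a difference of 4.42, and in IPS1, with 3.06, cyp71-3 was above and se-1 below Col-0. All 9 kept their direction and their call in the 24 alternatives, and no cause was tested. Groups of 3 libraries are too small for a test of single outlying libraries.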

How the results depend on the processing

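Of 24 alternatives, none reversed a called named gene. With a required difference above 0.25, 2550 genes were called higher and 3094 lower. At a difference of at least 1, a pseudocount of 5 left 219 higher and 337 lower, which follows from its compression of low values, and a filter of mean 5 FPKM left 390 higher among fewer genes tested. Leaving out 1 library gave 5068 to 5715 higher and 5623 to 6150 lower calls, and 631 to 665 and 783 to 816 at a difference of at least 1. Of all calls, 48.3% were higher, against 52.3% under quantile normalization, 47.0% under median centring and 55.9% when FPKM was rescaled without organelle and short genes; the median of all genes was 0.0226, -0.0108 and 0.0526 under these, against -0.0006. Of 254 called named genes, 70 lost the call somewhere, 48 of them only with the required difference and 19 when a library was left out. With replicate number as a block, 5609 genes were higher and 6027 lower, and 3 named genes lost the call (NFYA8, AFB3 and MIR169a). The labels do not say whether the numbers pair the libraries, and they were not treated as pairs. Deviations of same-numbered libraries correlated at 0.0168, 0.0386 and 0.0438, values that cannot show whether a pairing exists. In these deviations, though not in whole expression levels, each cyp71-3 library correlated best with the se-1 library of its own number. Values this small do not settle the design. Relative depth is known only coarsely, so low genes are limited to an unknown extent.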
